A study of Mus musculus with 9 samples.

Results

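The 10 genes Gm6344, Gm8210, Gm13841, Gm3579, BC002163, Trim13, Ctps2, Hmgn2, Tmem234 and Glb1, of 46095 symbols in the count table, were listed because their counts switched almost on or off, or shifted very evenly, between the genotypes of one RNA sequencing experiment in mouse colon. The same counts chose them, so their differences between the genotypes are given as a description, with no test. The RNA came from intestinal epithelial cells (IECs) of the colon. The libraries were 4 from Smad4Vil-KO mice and 5 from Smad4Vil-KO;Setd2Vil-KO mice. Smad4 was deleted in both groups with Villin-Cre, a recombinase driven by the promoter of an intestinal epithelial gene, and the second group also lost Setd2. The mice were kept on a C57BL/6J background, and all of them received the carcinogen azoxymethane (AOM, 10 mg/kg) at 8 weeks of age and then 2% dextran sodium sulphate (DSS), which injures the colon, for 5 days starting 5 days later. The IECs were taken at day 10.

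Several of the genes belong to families that arose by copying. A processed pseudogene is a DNA copy of a messenger RNA that was inserted elsewhere in the genome, so it carries the exons of its parent without the introns, and a short read from the parent can match the copy almost as well. When a copy differs from its parent at only a few bases, those bases decide which of them a read is assigned to. A gene next to a targeted allele is inherited together with it, and the strain from which that allele came can differ from the recipient strain in the same stretch of the chromosome. How reads matching several places were handled, and whether the strand was used in counting, are not given in the sources used here, so counts of near-identical copies and of overlapping genes are uncertain.

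Gm6344, Gm8210 and Gm13841 are processed pseudogenes of 483 bases and match the coding sequence of Rpl29, which encodes a protein of the large ribosomal subunit. In GENCODE M21 (GRCm38, mm10), Gm6344 lies at chr13:55085777-55086259 on the plus strand, Gm8210 at chr1:43189156-43189638 on the plus strand, Gm13841 at chr5:115801677-115802159 on the minus strand, and Rpl29 at chr9:106429454-106431568 on the plus strand. Counted from 1 at the start codon, Gm6344 differed from Rpl29 by C300T, T423C and G454A. Gm8210 and Gm13841 both differed from Rpl29 by C72A, C300T and T423C, and from each other at no base. The first stretch holds bases 52 to 92 and is shown for the base, in capitals, that Gm8210 and Gm13841 share with neither Gm6344 nor Rpl29.
Rpl29: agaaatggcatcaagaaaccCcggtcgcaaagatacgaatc
Gm6344: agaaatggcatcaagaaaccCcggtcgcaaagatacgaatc
Gm8210: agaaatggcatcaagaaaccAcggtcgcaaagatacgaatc
Gm13841: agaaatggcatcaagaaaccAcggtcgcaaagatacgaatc

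The second stretch holds bases 403 to 474. Its capitals mark a base at which all 3 pseudogenes differ from Rpl29, and then the base that sets Gm6344 apart.
Rpl29: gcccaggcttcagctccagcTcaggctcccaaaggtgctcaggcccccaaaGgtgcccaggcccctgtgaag
Gm6344: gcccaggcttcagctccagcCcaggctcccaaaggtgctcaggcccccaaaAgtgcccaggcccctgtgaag
Gm8210: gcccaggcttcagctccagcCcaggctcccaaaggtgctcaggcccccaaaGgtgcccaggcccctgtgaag
Gm13841: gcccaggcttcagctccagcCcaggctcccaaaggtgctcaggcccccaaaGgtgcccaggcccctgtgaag

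BC002163 is a processed pseudogene of 319 bases at chr16:42955631-42955949, inside an intron of Zbtb20. Its sequence was 99.37% identical to Ndufs5, a subunit of mitochondrial complex I encoded at chr4:123712710-123718202 on the minus strand. It differed from Ndufs5 by T81C and A105G, counted from 1 at the start codon, and both bases stand in capitals in bases 61 to 125.
Ndufs5: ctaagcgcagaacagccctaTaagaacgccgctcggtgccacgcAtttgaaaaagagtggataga
BC002163: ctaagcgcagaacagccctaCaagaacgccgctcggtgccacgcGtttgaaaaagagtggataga

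The other members are protein-coding genes, apart from Gm3579, which is named only. Trim13, a ubiquitin ligase of the endoplasmic reticulum, lies at chr14:61598247-61605946, and Ctps2, a CTP synthase of pyrimidine metabolism, at chrX:162901238-163032508. Hmgn2, which binds nucleosomes, lies at chr4:133964738-133968650 on the minus strand. Tmem234, a predicted membrane protein, lies on the same chromosome at chr4:129600668-129624059. Glb1, the lysosomal beta-galactosidase, lies at chr9:114401076-114474898. Hmgn2 had 12 copies with at least 95% identity over at least 200 bases, of which Hmgn2-ps1 at chr5:84123313-84123591 was identical over 279 bases. Trim13 had a single such copy, Gm9359, which had 0 counts in the 9 libraries, and Ctps2, Tmem234 and Glb1 had none.

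The libraries held 12487129 to 17120202 counts in Smad4Vil-KO and 12729533 to 14637157 in Smad4Vil-KO;Setd2Vil-KO, so 1 count was worth 0.0594 to 0.0794 CPM (a library-size scale, here with TMM normalization). Setd2, the H3K36 methyltransferase, had 1839, 2021, 1615 and 1441 counts in the Smad4Vil-KO libraries and 902, 1224, 797, 685 and 981 in the Smad4Vil-KO;Setd2Vil-KO libraries, with no overlap. It was lower in the latter by edgeR's quasi-likelihood test (log2 fold change -0.77 ± 0.14 SE, adjusted p = 0.00756), and Smad4, deleted in both groups, did not pass (adjusted p = 0.819). Smad4 was still counted in every library, with 698 to 1445 counts in Smad4Vil-KO and 515 to 1600 in Smad4Vil-KO;Setd2Vil-KO; which exons these counts come from was not analysed here. In edgeR, 1941 of 14593 genes passed an adjusted p of 0.05, which is 13.3%, with 6.76% higher and 6.54% lower in Smad4Vil-KO;Setd2Vil-KO. The 11 colon epithelial markers were detected and 0 passed in edgeR (1 at an unadjusted p under 0.05 and 1 in DESeq2, which called 19.1% of all genes), with summed levels of 15961 to 18863 CPM against 13739 to 19098 CPM. Of 8 leukocyte and 4 stromal markers tested, 0 passed in edgeR or DESeq2, and 0 and 1 had an unadjusted p under 0.05; their sums were 55.8 to 147.5 against 50.5 to 102.9 CPM for leukocytes and 9.69 to 19.0 against 11.6 to 31.6 CPM for stroma. The summed small-intestinal enterocyte markers were 26.2 to 57.4 CPM in Smad4Vil-KO and 220 to 897 CPM in Smad4Vil-KO;Setd2Vil-KO, with 7 of 8 tested higher, and their part in the results below was not tested. Y-linked genes had 3857 to 4907 summed counts in Smad4Vil-KO;Setd2Vil-KO replicates 1, 2 and 5. They had at most 28 in the other 6 libraries, of which Smad4Vil-KO;Setd2Vil-KO replicate 3 had the 28. Xist, an X-linked RNA, had 5, 6 and 5 counts in the former and 17833 to 26617 in the other 6. All Smad4Vil-KO libraries were among these 6, so the difference partly goes with the genotype. Libraries under 100 Y-linked counts are called low in Y-linked counts below.

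The 10 genes separated the genotypes in every library, 5 with higher and 5 with lower levels in Smad4Vil-KO;Setd2Vil-KO. Over all 14593 genes tested, 17.2% had CPM values that did not overlap between the genotypes (8.34% higher and 8.87% lower in Smad4Vil-KO;Setd2Vil-KO), and since the members were picked for that property nothing is read from the difference. A complete on-off pattern was rarer. Where one genotype never exceeded 3 counts and the other never fell under 30, a gene was termed on-off, and 8 of 46095 symbols met this (0.0174%). Only 3 of the 10 members, Gm6344, Gm8210 and Trim13, were among them, so that the name on-off describes the other 7 loosely. A fitted fold change over 4 was found for 8 members and for 1.87% of the genes tested.

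**Figure D1:**
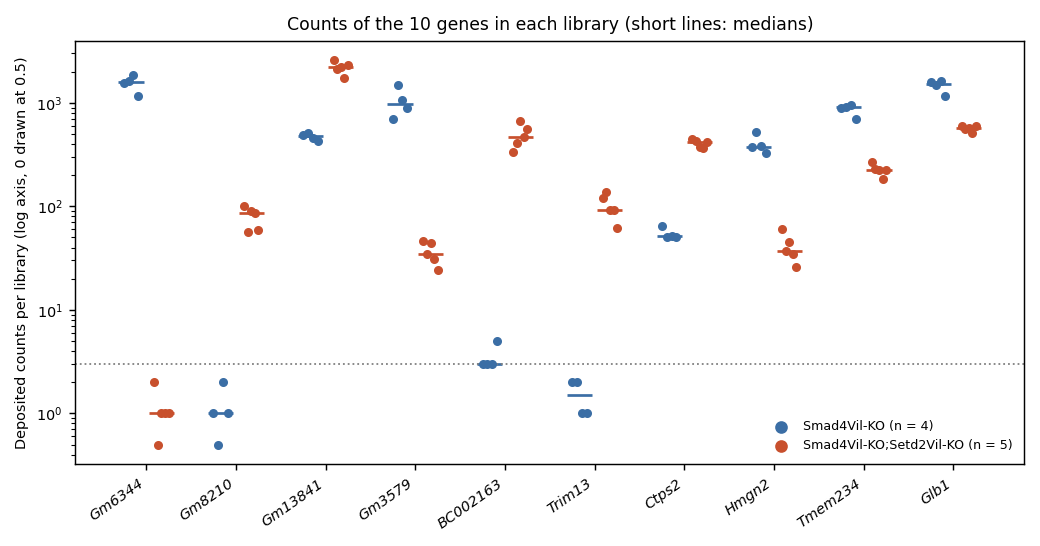
Deposited counts (log axis, 0 drawn at 0.5) of the 10 genes in each of the 4 Smad4Vil-KO libraries (blue) and 5 Smad4Vil-KO;Setd2Vil-KO libraries (orange), with short lines at the medians and a dotted line at 3 counts. Gm6344, Gm8210 and Trim13 lie at or under the dotted line in one genotype, and no gene has overlapping groups.

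Gm6344 was present in one genotype and almost absent in the other. It had 1566, 1635, 1836 and 1156 counts in the Smad4Vil-KO libraries and 2, 0, 1, 1 and 1 in the Smad4Vil-KO;Setd2Vil-KO libraries. All of the former were high and all of the latter within 2 counts of 0. The mean level was 100.5 ± 8.90 CPM (SD, n = 4) in Smad4Vil-KO. The totals of 6193 and 5 counts, scaled by the summed TMM-normalized library sizes, gave a ratio of 1406. The 95% exact interval of 602 to 4331 covers counting error only and not the spread between mice. Of the exon bases of Gm6344, 86.13% also lie in an exon of Uimc1, a ubiquitin-binding protein of DNA repair on the opposite strand. Uimc1 itself was at 42.3 and 35.8 CPM and did not pass in edgeR (adjusted p = 0.0786).

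Gm8210 and Gm13841 were high in the opposite genotype. Gm8210 had 1, 0, 2 and 1 counts in Smad4Vil-KO and 101, 57, 90, 86 and 59 in Smad4Vil-KO;Setd2Vil-KO, where its mean was 5.63 ± 1.23 CPM (SD, n = 5). Its totals of 4 and 393 counts, scaled by library size as for Gm6344, gave a ratio of 86.6. The exact interval of 33.5 to 319 covers counting error only. Gm13841 was expressed in both genotypes, with 490, 514, 457 and 426 counts in Smad4Vil-KO and 2591, 2135, 2195, 1716 and 2304 in Smad4Vil-KO;Setd2Vil-KO. The means were 31.0 ± 2.38 (SD, n = 4) and 157 ± 16.4 CPM (SD, n = 5), 5.07-fold apart. Gm8210 and Gm13841 have the same sequence, so reads from within it cannot tell them apart.

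Rpl29, the parent of these pseudogenes, moved with Gm6344. It had 3259, 3482, 3503 and 2443 counts in Smad4Vil-KO and 38, 17, 47, 41 and 36 in Smad4Vil-KO;Setd2Vil-KO, with no overlap. It was lower in Smad4Vil-KO;Setd2Vil-KO (log2 fold change -6.32 ± 0.20 SE, edgeR adjusted p = 2.94e-08), in counts that can share reads with the members. Gm10709, another pseudogene of Rpl29, had 38, 55, 94 and 59 against 0, 1, 1, 0 and 2 counts (adjusted p = 0.000166 in edgeR). Rpl29, Gm6344, Gm10709, Gm8210 and Gm13841 were compared base by base, and the other copies were not. Among these 5, the genes without C72A (Rpl29, Gm6344 and Gm10709) were low in Smad4Vil-KO;Setd2Vil-KO, and Gm8210 and Gm13841, which carry C72A, were high. Gm6344, Gm8210 and Gm13841 were chosen on this contrast, and the last 2 have the same sequence. The split is therefore a description, and which base assigns the reads was not tested.

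The shares within the Rpl29 set showed how its reads were distributed. In Smad4Vil-KO, Rpl29 took 59.3 to 61.2% of the counts of the set, Gm6344 took 28.2 to 31.1% and Gm13841 took 7.74 to 10.4%. In Smad4Vil-KO;Setd2Vil-KO, Gm13841 took 92.9 to 96.6%, Gm8210 took 2.46 to 4.66% and Rpl29 took 0.769 to 2.22%. The gene with the largest share thus had a narrow range of shares in each genotype, and the shares of these 4 genes did not overlap between the genotypes. Each of the 3 pseudogenes had 32 copies with at least 95% identity over at least 200 bases, Rpl29 included, of which 14 are in the table, and reads assigned to the others are not in the sum. Summed over the 15 genes of the set in the table, the level was 343 ± 15.6 CPM (SD, n = 4) in Smad4Vil-KO and 166 ± 15.9 CPM (SD, n = 5) in Smad4Vil-KO;Setd2Vil-KO, a ratio of 0.483. The libraries ranged from 325 to 363 and from 145 to 186 CPM, so the sum did not overlap either.

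BC002163 and Ndufs5 exchanged places. BC002163 had 3, 3, 3 and 5 counts in Smad4Vil-KO and 331, 411, 673, 466 and 559 in Smad4Vil-KO;Setd2Vil-KO. Its totals of 14 and 2440, scaled by library size as for Gm6344, gave a ratio of 154. The exact interval of 91.3 to 281 covers counting error only. Ndufs5 had 569, 704, 734 and 474 counts in Smad4Vil-KO and 10, 9, 2, 17 and 21 in Smad4Vil-KO;Setd2Vil-KO (log2 fold change -5.54 ± 0.35 SE, edgeR adjusted p = 8.98e-06). Each library thus had a high count of exactly 1 member of this pair. Ndufs5 took 98.96 to 99.6% of the pair's counts in Smad4Vil-KO and 0.296 to 3.62% in Smad4Vil-KO;Setd2Vil-KO. The summed level was 40.5 ± 3.90 CPM in Smad4Vil-KO (SD, n = 4) and 36.4 ± 10.6 CPM in Smad4Vil-KO;Setd2Vil-KO (SD, n = 5), a ratio of 0.898, and the ranges of 36.7 to 45.3 and 21.9 to 47.2 CPM overlapped. Of 8 complex I subunits of the Ndufs series tested, only Ndufs5, which can share reads with BC002163, passed in edgeR. That share is near the 13.3% of all genes tested, so nothing is read from it. The median log2 fold change of the 8 was -0.06. Zbtb20, the transcription factor gene whose intron holds BC002163, was at 24.6 and 23.4 CPM (edgeR adjusted p = 0.862).

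Hmgn2 had 372, 522, 383 and 327 counts in Smad4Vil-KO and 60, 37, 45, 35 and 26 in Smad4Vil-KO;Setd2Vil-KO. Its means were 26.1 ± 3.46 (SD, n = 4) and 2.88 ± 0.676 CPM (SD, n = 5), 9.06-fold apart and without overlap. Its copy Hmgn2-ps1 had the opposite order, with 413, 534, 454 and 404 against 1084, 728, 618, 625 and 658 counts, and was higher in Smad4Vil-KO;Setd2Vil-KO (log2 fold change 0.84 ± 0.13 SE, edgeR adjusted p = 0.00359). The copy Gm7931 was also higher (log2 fold change 0.85 ± 0.18 SE, edgeR adjusted p = 0.0149). Gm10182, identical to Hmgn2 over 273 bases, and Gm7125 did not pass in edgeR, with log2 fold changes of 1.10 ± 0.34 and 1.08 ± 0.33 SE (adjusted p = 0.0558 and 0.0511) on libraries that did not overlap. Gm10282, which had the longest match to Hmgn2, was at 27.4 ± 2.85 and 24.2 ± 3.45 CPM (edgeR adjusted p = 0.344). The share of Hmgn2 in the counts of the set was 27.0 to 32.3% in Smad4Vil-KO and 2.14 to 3.87% in Smad4Vil-KO;Setd2Vil-KO, and that of Hmgn2-ps1 was 29.9 to 35.1% and 53.1 to 61.8%. The summed level over Hmgn2 and the 8 of its 12 copies that are in the table was 89.7 ± 5.61 CPM in Smad4Vil-KO (SD, n = 4) and 92.3 ± 12.8 CPM in Smad4Vil-KO;Setd2Vil-KO (SD, n = 5), a ratio of 1.03 with overlapping libraries. Of 7 other high mobility group genes tested, 0 passed in edgeR or DESeq2, where 13.3% and 19.1% of all genes passed. An unadjusted p under 0.05 was found for 3, and the median log2 fold change of the 7 was 0.20. Over all copies and family members of the 10 genes, 12 were tested and 5 passed in edgeR, against 13.3% of all genes tested, namely Rpl29, Ndufs5 and Gm10709 lower and Hmgn2-ps1 and Gm7931 higher. All 5 can share reads with members chosen on this contrast, so this count is a description.

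**Figure D2:**
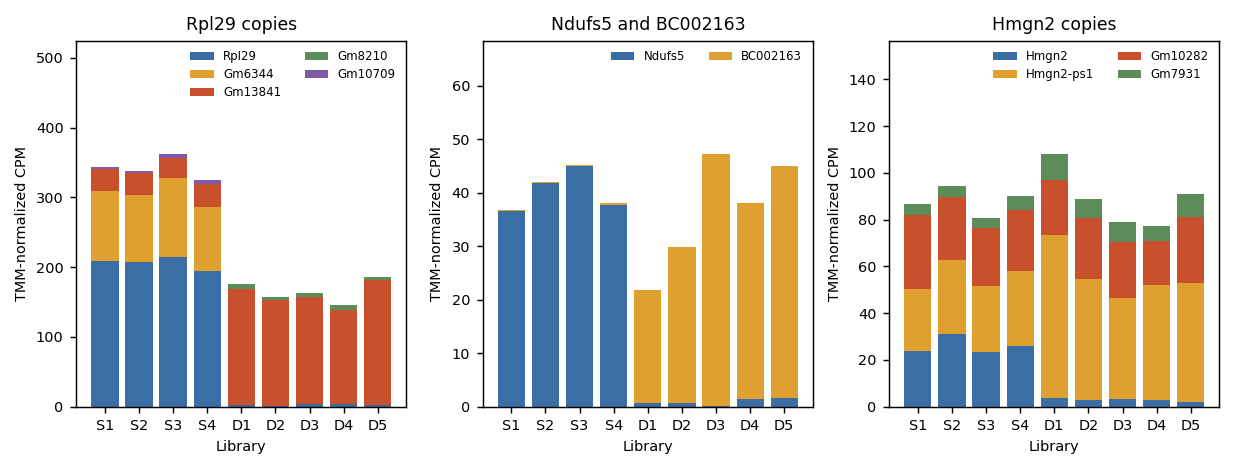
TMM-normalized CPM of Rpl29 and its main copies, of Ndufs5 and BC002163, and of Hmgn2 and its main copies, stacked for each Smad4Vil-KO (S1 to S4) and Smad4Vil-KO;Setd2Vil-KO (D1 to D5) library; copies with few counts are not drawn. The largest part changes between the genotypes for Rpl29 and for Ndufs5 with BC002163. In the third set Hmgn2 shrinks and Hmgn2-ps1, already above Hmgn2 in Smad4Vil-KO, grows. The copies in the table summed to 343 and 166 CPM for Rpl29 and 40.5 and 36.4 CPM for Ndufs5 with BC002163. Those of Hmgn2 summed to 89.7 and 92.3 CPM.

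Gm3579 had 697, 1493, 1065 and 896 counts in Smad4Vil-KO and 46, 35, 44, 31 and 24 in Smad4Vil-KO;Setd2Vil-KO. These were means of 67.5 ± 18.1 (SD, n = 4) and 2.56 ± 0.481 CPM (SD, n = 5), which lay 26.3-fold apart. It varied most of the members within Smad4Vil-KO among those above 1 CPM there, with a coefficient of variation of 26.9%. Its lowest Smad4Vil-KO library, at 44.7 CPM, lay far above its highest Smad4Vil-KO;Setd2Vil-KO library, at 3.08 CPM.

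Trim13 was near 0 in Smad4Vil-KO, with 2, 2, 1 and 1 counts, and had 119, 137, 93, 92 and 62 counts in Smad4Vil-KO;Setd2Vil-KO. The mean in the latter was 7.18 ± 1.79 CPM (SD, n = 5). The totals of 6 and 503 counts, scaled by library size as for Gm6344, gave a ratio of 73.9. The exact interval of 33.7 to 202 covers counting error only. Dleu2, a noncoding gene that overlaps the span of Trim13 on the opposite strand but shares 0 of its exon bases, was at 2.99 and 2.35 CPM (edgeR adjusted p = 0.525). Trim13 is known for its part in endoplasmic reticulum-associated degradation (ERAD). Of 16 other ERAD genes tested, 0 were higher and 3 were lower in edgeR (Syvn1, Derl1 and Ube2g2), where 6.54% of all genes were lower, and 5 had an unadjusted p under 0.05 and 4 passed in DESeq2. The 3 had log2 fold changes of -0.35, -0.25 and -0.38, and the median over the list was -0.03, near that of all genes.

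Ctps2 had 64, 51, 52 and 51 counts in Smad4Vil-KO and 444, 432, 371, 368 and 418 in Smad4Vil-KO;Setd2Vil-KO. The means were 3.59 ± 0.562 (SD, n = 4) and 29.3 ± 2.44 CPM (SD, n = 5), 8.15-fold apart, and each group was narrow. Ctps2 is X-linked, and the 2 libraries of Smad4Vil-KO;Setd2Vil-KO low in Y-linked counts, at 25.9 and 28.9 CPM, were 7.63-fold above Smad4Vil-KO, while the other 3 were at 28.5 to 32.4 CPM. Its paralogue, listed as Ctps, was at 32.4 ± 4.92 and 44.5 ± 10.1 CPM with overlapping libraries (edgeR adjusted p = 0.0916). Of 15 pyrimidine synthesis genes tested, 0 passed in edgeR in either direction, where 13.3% of all genes passed, and 5 had an unadjusted p under 0.05. In DESeq2, 2 passed, where 19.1% of all genes did. The median log2 fold change of the 15 was 0.03.

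Tmem234 and Glb1 shifted evenly and stayed well expressed in both genotypes. Tmem234 had 886, 918, 960 and 692 counts in Smad4Vil-KO and 268, 231, 224, 182 and 224 in Smad4Vil-KO;Setd2Vil-KO. The means were 56.3 ± 2.02 (SD, n = 4) and 16.2 ± 1.25 CPM (SD, n = 5), 3.48-fold apart, with coefficients of variation of 3.59% and 7.71%. Glb1 had 1572, 1488, 1634 and 1150 counts against 599, 562, 565, 514 and 596, with means of 95.2 ± 6.32 (SD, n = 4) and 40.9 ± 3.07 CPM (SD, n = 5), 2.33-fold apart. In bulk RNA, fewer cells expressing a gene and less RNA per cell cannot be told apart. Of 19 lysosomal glycosidases and partners tested beside Glb1, Neu1 was higher (log2 fold change 1.19 ± 0.25 SE), Manba and Naglu were lower (-0.29 ± 0.09 and -0.81 ± 0.13 SE) in edgeR, and the median was -0.23. These 3 of 19 are a share close to the 13.3% of all genes, with Manba at an adjusted p of 0.0487 in edgeR, while 9 had an unadjusted p under 0.05 and 4 passed in DESeq2.

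The gap between the genotypes was next ranked over 13722 genes averaging 1 CPM or more, as the lowest library of the higher genotype divided by the highest library of the lower one, with 0.5 counts added. Gm6344 stood at rank 1 with a ratio of 573, BC002163 at rank 5 with 48.7, Trim13 at rank 7 with 30.2 and Gm8210 at rank 8 with 26.6. Gm3579 had 14.4, Ctps2 6.28, Hmgn2 6.07, Gm13841 3.99, Tmem234 3.14 and Glb1 1.91. The members thus ran from rank 1 to rank 143, and Glb1 had close neighbours on this scale in Cnnm1 (1.91) and Zfp61 (1.91). Of all these genes, 128 had a ratio over 2 and 41 had one over 4, against 9 and 7 of the members, which is a description since this contrast chose them. The other genes among the first 10 were Gm33901, Rpl29, LOC101056073, LOC108169013, LOC108169144 and Ndufs5. Gm33901, a noncoding gene on chromosome 4, had 258, 153, 135 and 127 counts in Smad4Vil-KO and 0 in all 5 Smad4Vil-KO;Setd2Vil-KO libraries.

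**Figure D3:**
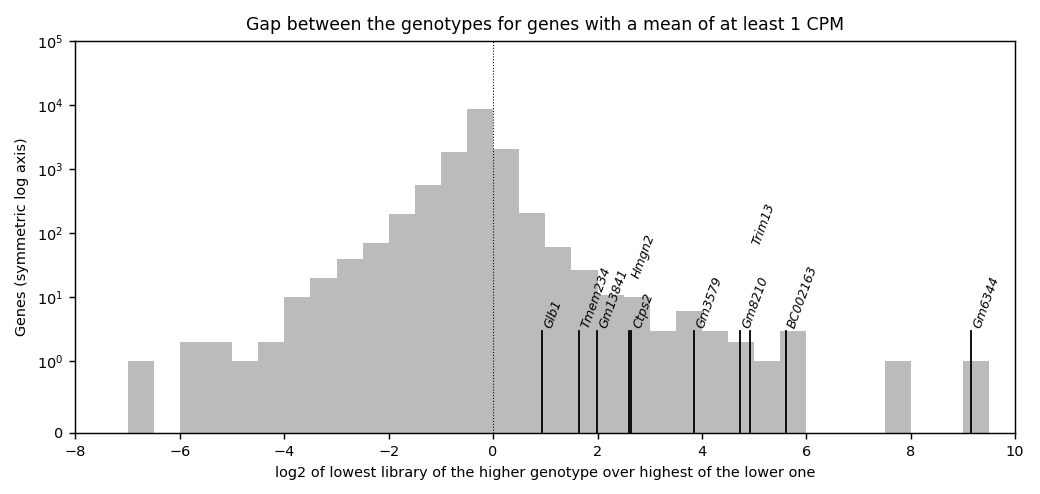
Number of genes (symmetric log axis) by the log2 ratio of the lowest library of the higher genotype to the highest library of the lower one, for 13722 genes averaging 1 CPM or more, with the 10 members marked by vertical lines. Values above 0 mean that the genotypes do not overlap; the members run from Glb1 (ratio 1.91) to Gm6344 (ratio 573).

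The nearest tested genes were then examined, since they were chosen by position and not by their values. Uimc1, Dcdc2b, Iqcc, Ccdc28b and Tmppe share exon bases with a member, so their counts may not be independent of the values that chose it. Among the 5 nearest tested genes with a GENCODE position on each side of the 9 members with a position, 11 of 90 passed in edgeR (12.2%, against 13.3% of all genes tested), 5 higher and 6 lower, and their median log2 fold change was 0.01. Over all tested genes within 1 Mb, 28 of 192 passed in edgeR, 8 higher and 20 lower. Of the 10 neighbours each of Gm6344, Gm8210, Gm13841 and BC002163, 0 passed in edgeR, while 2, 1, 3 and 1 had an unadjusted p under 0.05 and 0, 1, 1 and 1 passed in DESeq2. These neighbours were not all close. All 5 on one side of BC002163 were 3.93 to 4.36 Mb away, and the farthest of Gm8210 was at 2.33 Mb and of Gm13841 at 1.32 Mb, while those of Gm6344 lay within 0.392 Mb.

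The called neighbours were those of the protein-coding members, a difference that was not tested. Fam124a, 950 kb from Trim13, rose from 2.36 to 31.4 CPM (log2 fold change 3.72 ± 0.26 SE, edgeR adjusted p = 1.48e-05), and Spryd7, 41.4 kb from Trim13, was also higher (log2 fold change 0.65 ± 0.13 SE). Beside Ctps2, Rbbp7, a histone-binding protein, was higher (0.46 ± 0.09 SE), and beside Hmgn2, Sfn, a 14-3-3 protein, was lower (-0.55 ± 0.11 SE). Both overlapping neighbours of Tmem234 that share exon bases with it on the opposite strand and passed in edgeR were lower, Dcdc2b by -2.74 ± 0.35 SE (adjusted p = 0.00121) and Ccdc28b by -1.25 ± 0.22 SE (adjusted p = 0.00566). Iqcc, which also shares exon bases with Tmem234 on that strand, did not pass in edgeR (-0.29 ± 0.27 SE, adjusted p = 0.489). Hdac1, a histone deacetylase, and Marcksl1, both farther from Tmem234, were higher (0.67 ± 0.12 and 1.12 ± 0.25 SE). Beside Glb1, the overlapping gene Tmppe and the more distant Cmtm7 and Cmtm8 were lower, by -0.39 ± 0.12, -0.83 ± 0.20 and -1.37 ± 0.32 SE. Tmppe shares 165 exon bases with Glb1 on the same strand. The share of called neighbours was near that of all genes, so nothing is read from their directions.

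**Figure D4:**
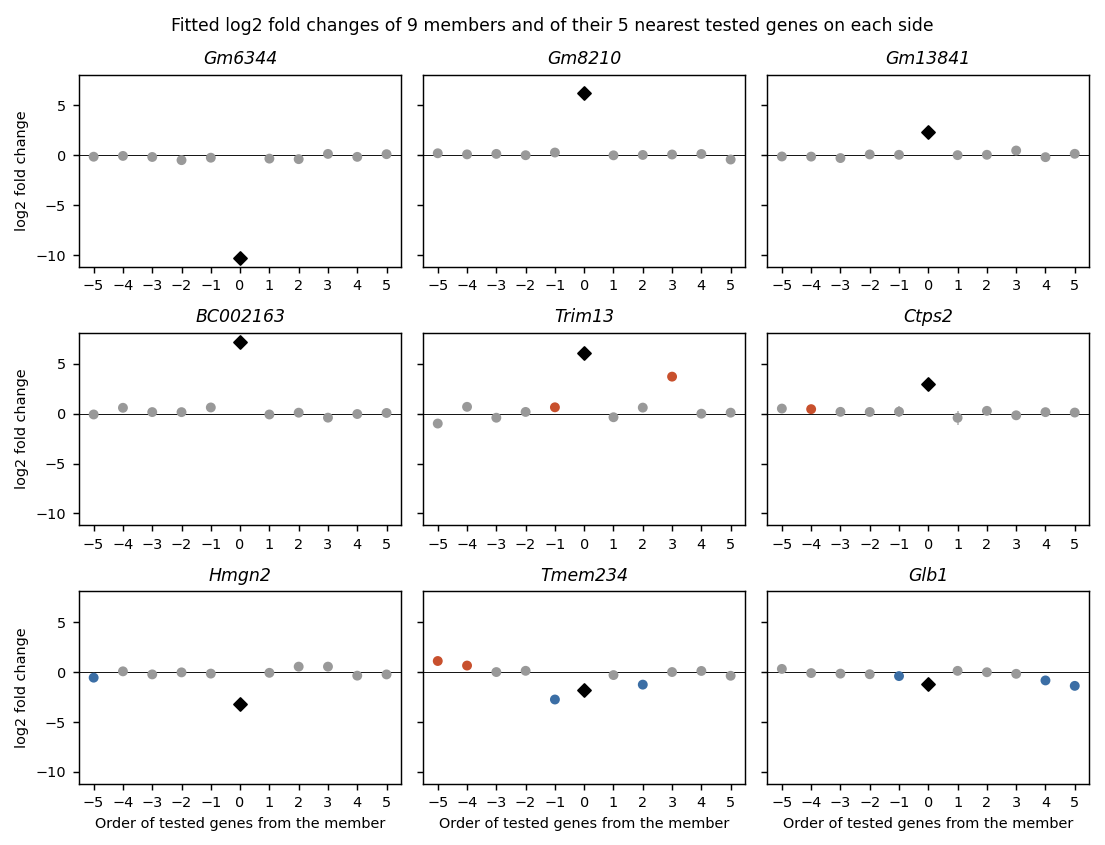
Fitted log2 fold changes (Smad4Vil-KO;Setd2Vil-KO over Smad4Vil-KO, bars 1 SE) of the 5 nearest tested genes on each side of 9 members, in order along the chromosome, with the member as a black diamond. Called neighbours are orange (higher) or blue (lower), 11 of 90 in all, and those of Gm6344, Gm8210, Gm13841 and BC002163 are all grey.

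Some members and parent genes lie near each other or near the deleted gene. Glb1 is 3.78 Mb from Setd2 on one side and Rpl29 is 4.10 Mb from it on the other. Ndufs5, Tmem234 and Hmgn2 lie within 10.3 Mb of chromosome 4, with gaps of 5.88 Mb and 4.34 Mb, and Gm33901 is 0.678 Mb from Tmem234. The Setd2 deletion separates the same mice as the genotype, so the deletion itself and any sequence inherited along with the Setd2 allele cannot be told apart in these libraries. Genomic DNA and the bases of the reads were not analysed here.

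These 2 chromosome stretches were drawn after the values and positions were known, and the genes that define them are counted in them, so their shares are a description. Only tested genes with a GENCODE position were counted. From Rpl29 to Glb1, 24 of 105 genes passed in edgeR (22.9%, against 13.3% of all genes), with a median log2 fold change of -0.20. All of the 24 were lower, where 6.54% of all genes were lower and 6.76% higher. Without Rpl29, Setd2 and Glb1, 21 of 102 passed (20.6%). From Ndufs5 to Hmgn2, 27 of 131 passed (20.6%), 7 higher and 20 lower, with a median of -0.10, and without Ndufs5, Tmem234 and Hmgn2 they were 24 of 128 (18.8%). The median over all genes tested was near 0 at -0.00060. Among the genes counted, Rpl29 was the only one of the chromosome 9 stretch with a change over 2 on the log2 scale, and the chromosome 4 stretch had Ndufs5, Dcdc2b, Col16a1 and Hmgn2 lower and Snrnp40 higher by that much. Gm33901, which was placed on chromosome 4 from RefSeq (GRCm38) and is in neither the count nor the plot, lies in the same stretch. It was named for its gap between these genotypes, so its lower level is a description.

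**Figure D5:**
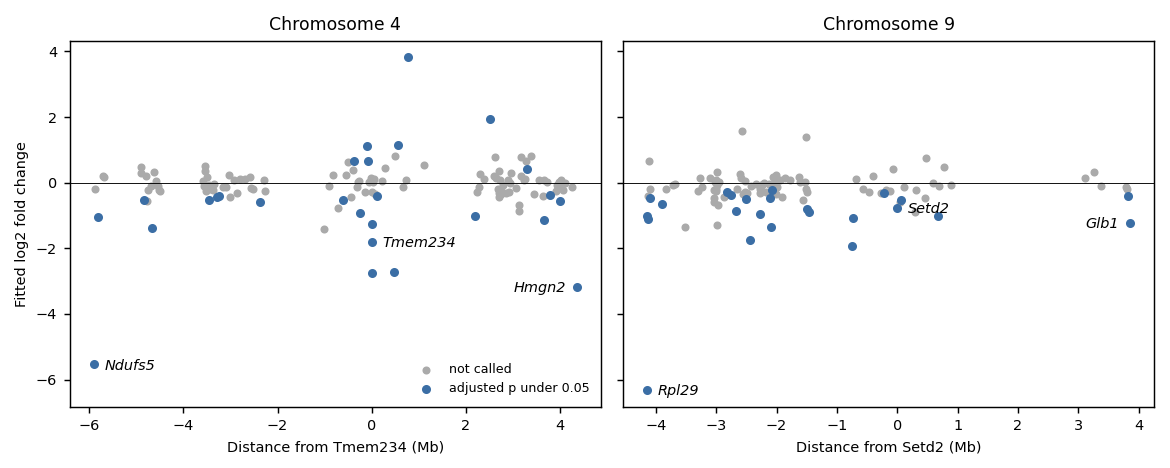
Fitted log2 fold changes of the tested genes with a GENCODE position from Ndufs5 to Hmgn2 on chromosome 4, by distance from Tmem234, and from Rpl29 to Glb1 on chromosome 9, by distance from Setd2 (both in Mb; blue, adjusted p under 0.05). Rpl29, Ndufs5 and Hmgn2 lie far below the other genes at their ends, and the 24 called genes of chromosome 9 are all lower.

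Within Smad4Vil-KO;Setd2Vil-KO, the spread of the members differed from gene to gene. The coefficient of variation of CPM over the 5 libraries was 7.49% for Glb1, 7.71% for Tmem234, 8.35% for Ctps2 and 10.4% for Gm13841. It was 18.8% for Gm3579, 21.8% for Gm8210, 23.5% for Hmgn2, 25.0% for Trim13 and 29.5% for BC002163. That of Gm6344 was 64.7%, on at most 2 counts a library. In the 2 of these libraries low in Y-linked counts, the ratio to the Smad4Vil-KO mean was 4.66 for Gm13841, 0.266 for Tmem234 and 0.420 for Glb1. The choice of the members fixed the direction in any subset of these libraries, so the part of the Y-linked difference in the values was not tested by it.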

How the data were processed

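RNA from IECs of 9 mice was sequenced from mRNA libraries; the submitters' processing notes name HISAT2 2.0 and mm10, and the counting tool, its annotation, strand use and treatment of multiply mapped reads are not given in the sources used here. The authors deposited counts of reads per gene symbol, which were used as they stand; 27 symbols had been turned into dates. The counts were tested with edgeR 4.0.16 (R 4.3.3; TMM, filterByExpr, quasi-likelihood test, two-sided, Benjamini-Hochberg over 14593 genes), after testing the script on simulated data (90 of 99 genes changed 4-fold and 56 of 97 changed 2-fold were recovered among 14373 genes). DESeq2 1.42.0, other normalizations and filters, left-out replicates, a replicate block, a term for Y-linked counts and the libraries with under 100 of them were alternatives. Fold changes are fitted with a prior count of 0.125.

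The members and all lists were chosen with earlier results of these data known. The genes named are the members, Setd2, Smad4, Xist, the copies and family genes, and the nearest and the called neighbours. Listed genes that passed and the first 10 by separation are also named. Zfp61, Cnnm1, Col16a1 and Snrnp40 were added after their values were seen. Copies were found with blastn 2.17.0 among GENCODE M21 transcripts (at least 95% identity over at least 200 bases, limits set after the counts had been seen); sequences are from the same release. Of 46095 symbols, 33887 had 1 position. An exact permutation test of the summed copies had been planned, and its p is not given because the sums contain members. Each library is labelled as a separate sample, and no pair of replicates agreed within sampling noise (chi-square per gene 9.22 to 63.1 over 16 pairs).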

Additional observations from a re-analysis of the deposited data

Results flagged for a closer look

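In 24 groups of values, each the libraries of one genotype for a member, Rpl29 or Ndufs5, the highest or lowest library was compared with the rest by Dixon's gap, and 2 had a library that stood apart, where chance gives about 1 in 20. BC002163 was at 0.397 CPM in Smad4Vil-KO replicate 4, above the other 3 libraries (gap over range 0.935), a difference between 5 and 3 counts. Glb1 was at 46.2 CPM in Smad4Vil-KO;Setd2Vil-KO replicate 5, above the other 4 libraries (gap over range 0.740) and still under all Smad4Vil-KO libraries, the lowest of which was at 88.4 CPM.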

How the results depend on the processing

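The choice of the members fixed the direction of their fold changes in any subset of the libraries, so their keeping it under the alternatives is no sign of stability. Of 166 such values, 2 moved by over 1 SD between libraries, both for Tmem234 (-1.91 with a term for Y-linked counts and -1.90 in the libraries with under 100 of them). The counts of called genes moved more, and their causes were not tested. Across all genes, leaving out 1 library gave 847 to 2696 calls against 1941 (1018, 1204, 847 and 1183 without Smad4Vil-KO replicates 1 to 4, and 1273 without Smad4Vil-KO;Setd2Vil-KO replicate 4), the term for Y-linked counts gave 1285, the libraries with under 100 Y-linked counts gave 2930, and DESeq2 gave 2792 (19.1%). Among the 90 neighbours the same settings gave 7 to 14 (7 without Smad4Vil-KO replicate 3), 7 and 19 calls against 11, DESeq2 gave 17, and all tested genes within 1 Mb gave 28 of 192 (8 higher and 20 lower). Among the function lists they gave 3 to 13 (4, 3 and 3 without Smad4Vil-KO replicates 1 to 3, 4 and 13 without Smad4Vil-KO;Setd2Vil-KO replicates 4 and 5), 4 and 14 calls against 7, and DESeq2 gave 11. Among copies and family members, DESeq2 called 8 of 12, a minimum of 10 counts in every library left 3 of 8, and left-out libraries gave 4 to 7. The on-off genes numbered 15 with up to 10 counts as off, 25 with 10 counts as on, and 8 to 10 with 1 library left out. The log2 fold change of Setd2 ranged from -0.89 to -0.70 over left-out libraries. It was -1.04 with the term for Y-linked counts and -1.04 in the libraries with under 100 of them. Over left-out libraries the summed ratios ranged from 0.468 to 0.498 (Rpl29), 0.831 to 0.988 (Ndufs5 with BC002163) and 0.973 to 1.06 (Hmgn2). In a single library a count of 0 allows up to 3 counts, 0.178 to 0.238 CPM, while the intervals of the ratios rest on the counts summed over a genotype.

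The replicate numbers did not pair the libraries (correlations of same-numbered libraries -0.10, -0.10, 0.02 and 0.09; 0 of 4 matched their own number best). With the number as a replicate block, which leaves out replicate 5, 1581 genes were called in all, 9 neighbours, 4 copies and family members and 6 listed genes.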
